A study of Mus musculus with 4 samples.

Results

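Genes of glycolysis and pyruvate metabolism were examined in B cells of the lymph nodes of miR-146a transgenic (TG) and wild type (WT) mice. The list held 31 genes chosen by name: the glucose transporters, the enzymes from hexokinase to lactate dehydrogenase, the lactate and pyruvate transporters, the switches of phosphofructokinase and pyruvate dehydrogenase, and the regulator Hif1a. Of these, 29 were named by at least 1 probe set of the array, with 53 probe sets among the 45037 tested in the series. Gpi1 and Eno1 were named by none and were not analysed here. Where a gene had several probe sets, the brightest on average stands for it. That of Pgam1 also carries the name of a pseudogene, Pgam1-ps1, and its signal cannot be assigned to Pgam1 alone.

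The groups were 2 wild type mice and 2 miR-146a transgenic mice, with 1 array for each mouse. All were male, on the Balb/C background and 6-8 wk old. The labels name neither the promoter nor the cells that drive the transgene. The cells were taken from lymph nodes by a magnetic separation that leaves B cells unlabelled, with a further step against dead cells. miR-146a is a microRNA that represses messages with sites for its seed, bases 2 to 8 from its 5′ end. It is shown here because it is what the transgenic mice over-express. The RefSeq entry for its 5′ arm (GRCm38.p6, chr11:43374435-43374456, minus strand) is printed with the seed in capitals.

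mmu-miR-146a-5p: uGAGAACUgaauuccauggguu

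Glycolysis splits glucose into pyruvate and yields ATP without oxygen. Lactate dehydrogenase then turns pyruvate into lactate, or the pyruvate dehydrogenase complex sends it as acetyl-CoA into the mitochondrial citric acid cycle. Resting B cells run this pathway at a low rate and raise it when they are activated. The transcription factor HIF-1, whose alpha subunit is encoded by Hif1a, and Myc are known to raise transcription of many of its genes.

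The deposited values are log2 signals, on which a difference of 1 is a 2-fold difference. Over all probe sets, the upper quartile was 6.13 on the array of transgenic mouse 1 and 6.51 to 6.55 on the other 3 arrays, and its median was lower too (4.48 against 4.59 to 4.61). B cell markers were present, with Ms4a1 at 10.89 to 11.33 on the 4 arrays, but T cell markers were as well, with Cd3d at 11.39 to 11.75. Summed on the linear scale, the signal of 9 measured B cell markers was 12018 and 12640 in the wild type arrays and 6588 and 6842 in the transgenic arrays. That of 8 T cell markers was 9559 and 9664 against 11750 and 12959, and that of 10 neutrophil markers 426.3 and 419.5 against 1647 and 2266. All 9 B cell markers lay lower without overlap (median difference -1.01), 7 of 8 T cell markers higher (median 0.26) and 9 of 10 neutrophil markers higher (median 1.45). The remaining T cell marker, Cd4, lay lower without overlap (-0.79), whereas Cd8a and Cd8b1 had the largest rises of that list (1.14 and 0.74). Of all genes 31.4% lay lower and 17.7% higher without overlap. Of 8 markers of monocytes and macrophages 5 lay higher (median 0.18). Of 7 natural killer cell markers 3 lay higher and 1 lower (median 0.062), with Eomes at 1.175 and Gzma at -0.96, and of 3 erythroid markers 2 lay higher (median 0.28), among them Hba-a1 at 11.94 and 11.92 against 12.15 and 12.38. Of 6 markers of stroma and endothelium 4 lay lower without overlap (median -0.12). In that list Pecam1 measured 6.59 to 7.15 and Ccl19 5.45 to 5.72, whereas Col1a1 and Col1a2 lay below 3 on every array, near the non-specific controls (2.83 to 2.95). In a bulk sample fewer cells of a type and less RNA per cell cannot be told apart, and the part of these shifts in the differences below was not tested.

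No gene of the list passed an adjusted p of 0.05 between transgenic and wild type arrays (limma, Benjamini-Hochberg over all probe sets, 0 of 29). Over all probe sets 0.0466% passed. At an unadjusted limma p under 0.05 there were 4 members, all lower in the transgenic arrays: Aldoc, Pfkl, Slc2a1 and Pkm. Among the brightest probe sets of all 17097 named genes 10.2% were lower and 3.83% higher at that level, and over all probe sets 13.7% met it in either direction. The difference was smaller than 0.15 on the log2 scale for 14 of 29 members. The 95% interval of the difference, not adjusted for the number of tests, stayed within 1 log2 unit of 0 for 25 members. It reached past a 2-fold difference for Aldoc, Pfkfb4, Pdk1 and Hk2. In simulated data of this size the fit recovered 6% of changes of 1 log2 unit and 84% of changes of 2 units, so a difference of 2-fold in a single gene would mostly not pass.

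By position, 11 members were lower without overlap between the groups, 4 were higher without overlap and 14 overlapped. The 11 were Slc2a1, Pfkl, Aldoc, Tpi1, Gapdh, Eno3, Pkm, Ldhb, Pfkfb4, Pdk1 and Pdk3, and the 4 were Hk1, Pgam1, Ldha and Slc16a3. Of all genes 31.4% were lower and 17.7% higher without overlap, so 11 and 4 of 29 lay near the share of genes at large. The median difference of the members was -0.11, beside -0.053 over all genes and -0.11 over the 12024 genes above the 40th percentile of signal, where 28 of the 29 members also lay. The split depended on the scaling between arrays. After quantile normalization, which gives the 4 arrays the same distribution, 5 members were lower and 11 higher without overlap (24.5% and 29.5% of all genes), and the median was 0.041. The 5 were Slc2a1, Aldoc, Tpi1, Eno3 and Pfkfb4, and each had also been lower before. No member passed after quantile normalization either, where 1.93% of all probe sets did.

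**Figure D1:**
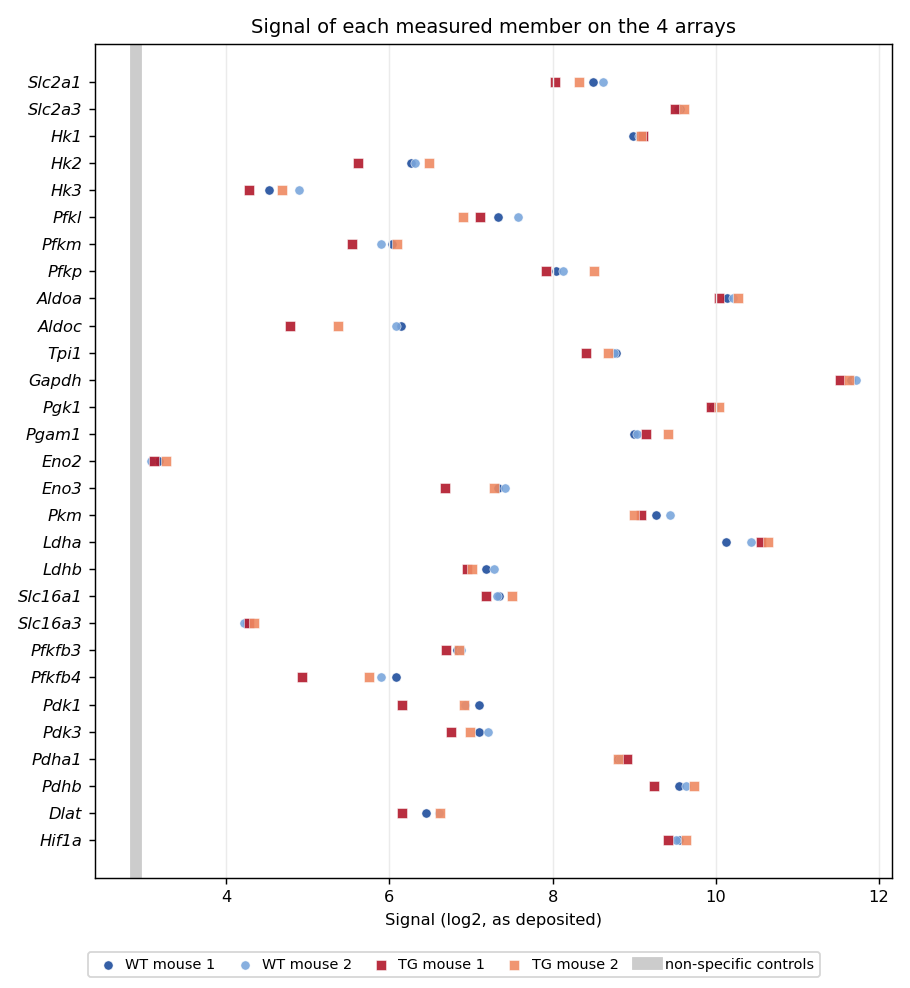
Signal of each of the 29 measured members (rows, in order of role) on the 4 arrays, on the deposited log2 scale. Circles are wild type and squares transgenic mice, and the grey band is the range of the non-specific controls. Many genes sit in a tight cluster of 4 points, while Aldoc is lower in both transgenic arrays, and Eno3, Pfkfb4 and Pdk1 are lower mainly in transgenic mouse 1. Hk2 is lower in transgenic mouse 1 and higher in transgenic mouse 2.

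The 2 transgenic arrays differed in how the pathway stood against wild type. The array of transgenic mouse 1 lay below both wild type arrays for 23 of 29 members and above both for 5, with a median of -0.27 against the wild type mean. The array of transgenic mouse 2 lay below both for 12 and above both for 15, with a median of 0.057. Of all 17097 genes the array of mouse 1 lay below both for 10574 and above both for 4654. That of mouse 2 lay below both for 6443 and above both for 7351. Control probe sets that report on the ends of a message differed between these arrays too. The b-actin signal at the 3′ end minus that in the middle was 0.47 on the array of mouse 1 and 0.14 to 0.16 on the other 3, and that of Gapdh at the 3′ end minus the 5′ end was -0.20 on the array of mouse 2 and 0.018 to 0.093 on the other 3. Their part in the differences was not tested. For 12 members only the array of mouse 1 lay below both wild type arrays. Among all genes, mouse 2 also lay below both for 5374 of the 10574 where mouse 1 did. Over the genes above the 40th percentile the medians of the 2 arrays were -0.24 and 0.0076, a gap of like size. Across the 29 members the differences of the 2 transgenic arrays from the wild type mean had a Pearson correlation of 0.63, with the wild type mean in both, beside 0.63 across all genes. The count of members past the threshold changed with the transgenic array left out. Without transgenic mouse 2 there were 12 members past the threshold, all lower and among them Aldoc, Pfkfb4, Pdk1, Eno3 and Hk2, where 42.4% of all probe sets passed, and without transgenic mouse 1 there were 3 (Aldoc lower, Pgam1 and Pfkp higher), where 9.19% did. Aldoc was the 1 member that passed in both fits, which take the spread of the lone array from the close pair of wild type arrays.

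**Figure D2:**
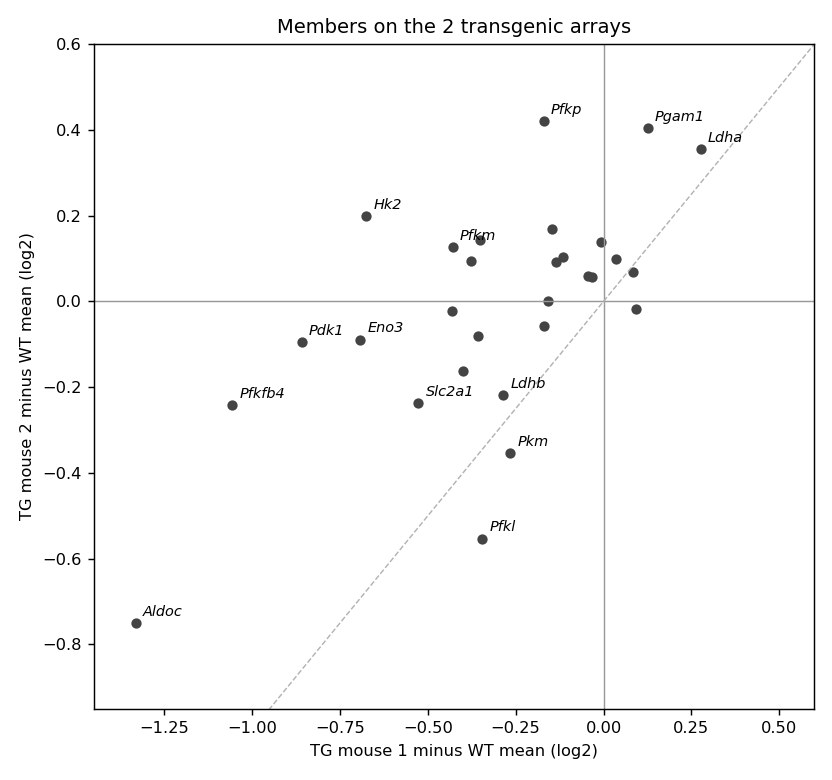
Difference of each member from the wild type mean on the array of transgenic mouse 1 (horizontal) and transgenic mouse 2 (vertical), in log2 units, with 1 point per gene. The dashed line marks equal differences, and 25 of 29 points lie above it, meaning a lower signal in mouse 1. That held for 12680 of all 17097 genes and for 10070 of the 12024 above the 40th percentile of signal. Aldoc lies farthest to the lower left, and Ldha and Pgam1 lie to the upper right.

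To set the sequences beside these values, promoters of the members were searched for ACGTG, the core letters of the hypoxia response element that HIF-1 binds, on both strands. A palindromic CACGTG counts once on each strand. RefSeq windows (GRCm38.p6) run from 250 bases before to 50 bases after a start, and 30 of the 31 listed genes had at least 1. The core was found in a window of 18 of these 30 genes (60%), and in 21.8% of all 27025 genes of the table. The letters contain a CpG, so their frequency moves with base composition, and a match is not a binding site. Among measured members with the core, 18 in number, 5 were lower and 4 higher without overlap and the median difference was -0.091. Among the 10 without it 6 were lower and none higher, with a median of -0.24, beside 31.4% lower and 17.7% higher of all genes. After quantile normalization 2 of the 18 were lower and 9 higher (median 0.073), and 3 of the 10 were lower and 1 higher (median -0.046), beside 24.5% and 29.5% of all genes. The difference between members with and without the core was not tested. The 5 lower members with the core in a window were Aldoc, Slc2a1, Gapdh, Pkm and Pdk3. The 150 bases before the start are shown for the 2 lower members with the smallest p (Aldoc and Pfkl). They are also shown for the 2 higher members with the smallest p (Ldha and Pgam1), and for Pgk1 as an example that differed little. Capitals mark the core on either strand.

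Aldoc, chr11:78322923-78323072, plus strand: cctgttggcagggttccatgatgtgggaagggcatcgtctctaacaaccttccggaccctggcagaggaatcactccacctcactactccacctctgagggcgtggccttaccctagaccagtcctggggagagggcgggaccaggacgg

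Pfkl, chr10:78009808-78009957, minus strand: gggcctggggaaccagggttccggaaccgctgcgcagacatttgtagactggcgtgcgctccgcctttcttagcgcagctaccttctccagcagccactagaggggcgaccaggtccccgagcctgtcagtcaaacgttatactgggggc

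Ldha, chr7:46845654-46845803, plus strand: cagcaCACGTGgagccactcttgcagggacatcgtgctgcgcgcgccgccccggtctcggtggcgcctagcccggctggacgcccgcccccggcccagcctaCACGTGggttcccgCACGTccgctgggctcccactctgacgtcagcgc

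Pgam1, chr19:41911721-41911870, plus strand: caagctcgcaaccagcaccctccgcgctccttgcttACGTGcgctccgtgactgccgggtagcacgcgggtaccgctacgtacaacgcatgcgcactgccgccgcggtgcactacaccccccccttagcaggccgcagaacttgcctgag

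Pgk1, chrX:106186950-106187099, plus strand: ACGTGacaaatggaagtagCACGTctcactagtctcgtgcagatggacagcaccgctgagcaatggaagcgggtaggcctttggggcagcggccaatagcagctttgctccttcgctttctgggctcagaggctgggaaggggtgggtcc

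The stretch of Ldha holds 5 matches over 3 places, that of Pgk1 holds 2 and that of Pgam1 holds 1. Those of Aldoc and Pfkl hold none, although Aldoc has 1 match further on in its window, after the start.

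Glucose enters lymphocytes through the transporters encoded by Slc2a1 and Slc2a3. Slc2a1, the ubiquitous transporter GLUT1 (1426599_PM_a_at), measured 8.50 and 8.62 in the wild type arrays and 8.03 and 8.32 in the transgenic arrays. Both transgenic values lay below both wild type values (log2 difference -0.38, SE 0.14, 1.30-fold lower, limma adjusted p = 0.353). Its other probe set differed by -0.27 and did not overlap either. Slc2a3, the high-affinity transporter GLUT3, measured 9.57 and 9.53 in wild type and 9.51 and 9.61 in transgenic arrays. The groups overlapped and differed by 0.0080 (95% interval -0.26 to 0.27), and its other 3 probe sets lay between -0.040 and 0.069.

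Hexokinases trap glucose in the cell by phosphorylation. Hk1, the constitutive form, measured 8.99 and 9.06 against 9.10 and 9.09. The transgenic values were higher without overlap, but by 0.075 only (SE 0.098, adjusted p = 0.759). Hk2, the inducible form, measured 6.27 and 6.31 in wild type arrays, 5.61 in transgenic mouse 1 and 6.49 in transgenic mouse 2. The 2 transgenic values thus lay on opposite sides of wild type (difference -0.24, 95% interval -1.03 to 0.55). Hk3, known from myeloid cells, was dim at 4.52 and 4.89 against 4.27 and 4.68, and the groups overlapped (difference -0.23).

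In upper glycolysis, aldolase C and the liver-type phosphofructokinase showed the smallest p-values of the list. Aldoc, the isoform best known from brain (1451461_PM_a_at), measured 6.15 and 6.08 in wild type and 4.78 and 5.36 in transgenic arrays. Both transgenic arrays lay well below wild type: the log2 difference was -1.04 (SE 0.21, 95% interval -1.60 to -0.48), a 2.06-fold lower signal, with a limma p of 0.0054 unadjusted and an adjusted p = 0.195. After quantile normalization it was -0.89 with an adjusted p = 0.0619. A second Aldoc probe set near background (2.89 to 3.48) differed by -0.34. Aldoa, the main aldolase of most tissues, measured 10.14 and 10.21 against 10.04 and 10.27. These overlapped (difference -0.022), and its 4 probe sets lay between -0.12 and 0.0080.

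Phosphofructokinase commits sugar to glycolysis and has liver, muscle and platelet subunits. Pfkl, the liver type (1439148_PM_a_at), measured 7.33 and 7.57 against 7.11 and 6.90. Both transgenic values were lower (difference -0.45, SE 0.14, 1.37-fold, adjusted p = 0.307), and its other 2 probe sets differed by -0.47 and -0.33, so that 3 of 3 lay on the same side. After quantile normalization the difference was -0.25 and the groups overlapped. Pfkp, the platelet type, measured 8.04 and 8.13 against 7.92 and 8.50. It overlapped (difference 0.12, SE 0.22), while its dimmer probe set (1437759_PM_at) measured 5.96 and 5.65 against 4.70 and 5.08, a difference of -0.92 (limma adjusted p = 0.194). The 2 probe sets of Pfkp thus went opposite ways, and their mean differed by -0.40. Pfkm, the muscle type, measured 6.04 and 5.89 against 5.54 and 6.09 and overlapped. Tpi1, triose phosphate isomerase, measured 8.77 and 8.75 against 8.40 and 8.68. Both transgenic values were lower, that of mouse 2 narrowly (difference -0.22, SE 0.13).

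Of 6 measured enzymes of lower glycolysis, the stretch of the pathway that yields ATP, 3 were lower and 1 was higher without overlap. Of all genes 31.4% were lower and 17.7% higher in this way. Gapdh, the dehydrogenase often used as a reference gene, measured 11.66 and 11.72 against 11.52 and 11.63, a difference of -0.11 (SE 0.10). The control probe sets for its 3′ end gave 11.32 and 11.38 against 11.03 and 11.26, and those for its 5′ end 11.25 and 11.29 against 11.01 and 11.46. Gapdh was therefore near but not equal on the 4 arrays, with transgenic mouse 1 lowest on each of these probe sets. Pgk1, phosphoglycerate kinase, measured 9.97 and 9.99 against 9.95 and 10.04, and overlapped (difference 0.012, 95% interval -0.25 to 0.27). Pgam1, phosphoglycerate mutase, measured 8.99 and 9.03 against 9.14 and 9.42, both transgenic values above wild type (difference 0.27, SE 0.13, adjusted p = 0.455; after quantile normalization 0.42, adjusted p = 0.0869).

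Enolase and pyruvate kinase make the last steps to pyruvate. Eno3, the muscle enolase, measured 7.33 and 7.42 in wild type arrays and 6.68 and 7.28 in transgenic arrays. The lower mean (difference -0.39, SE 0.22) came mostly from transgenic mouse 1, at -0.69 from the wild type mean where mouse 2 was at -0.089. Eno2, the neuronal enolase, stood at 3.07 to 3.26 on all arrays, just above the non-specific controls, and overlapped. Pkm, the pyruvate kinase of most tissues (1417308_PM_at), measured 9.27 and 9.44 against 9.09 and 8.999. Here both transgenic arrays were lower to a like extent (difference -0.31, SE 0.11, 95% interval -0.61 to -0.011, adjusted p = 0.355). After quantile normalization Pkm differed by -0.16 and overlapped.

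The lactate dehydrogenase subunits lay on opposite sides. Ldha, the subunit that favours lactate formation (1419737_PM_a_at), measured 10.13 and 10.44 in wild type and 10.56 and 10.64 in transgenic arrays. It had the largest positive difference of the list (0.31, SE 0.14, 1.24-fold, adjusted p = 0.418), and both transgenic arrays lay above both wild type arrays. Ldhb, the subunit of oxidative tissues (1448237_PM_x_at), measured 7.19 and 7.28 against 6.95 and 7.02, lower without overlap (difference -0.25, SE 0.10, adjusted p = 0.387). Its other probe set differed by -0.098, and after quantile normalization the first one differed by -0.039 with overlap.

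Isozymes were also compared within each array, where a shift common to both genes cancels. The 8 pairs were chosen after the member values were seen, and with 2 against 2 the smallest two-sided exact permutation p is 0.333. The log2 ratio of Ldha to Ldhb was larger in transgenic mouse 1 by 0.56 and in transgenic mouse 2 by 0.57 than the wild type mean, with no overlap (exact permutation p = 0.333). The 2 wild type arrays differed from each other by less, at 2.94 and 3.16 against 3.61 and 3.62. The ratio of Aldoc to Aldoa differed by -1.02 (transgenic mouse 1 -1.20, mouse 2 -0.84), that of Slc2a1 to Slc2a3 by -0.39 and that of Pfkfb4 to Pfkfb3 by -0.57, each without overlap and each at the same smallest exact permutation p. The ratio of Pfkl to Pfkp differed by -0.57, also without overlap, mostly through mouse 2 (-0.97, against -0.18 in mouse 1). This ratio depended on the probe set of Pfkp: with the dimmer one it differed by 0.47, and with the mean of all probe sets of each gene by -0.020, both with overlap. The other probe sets of Aldoc and Ldhb differed by less than those used here (-0.34 and -0.098), and ratios with them were not computed. Those of Hk1 to Hk2, Pdk1 to Pdk3 and Pfkl to Pfkm overlapped. After quantile normalization the Ldha to Ldhb ratio differed by 0.49 and the Aldoc to Aldoa ratio by -0.998.

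**Figure D3:**
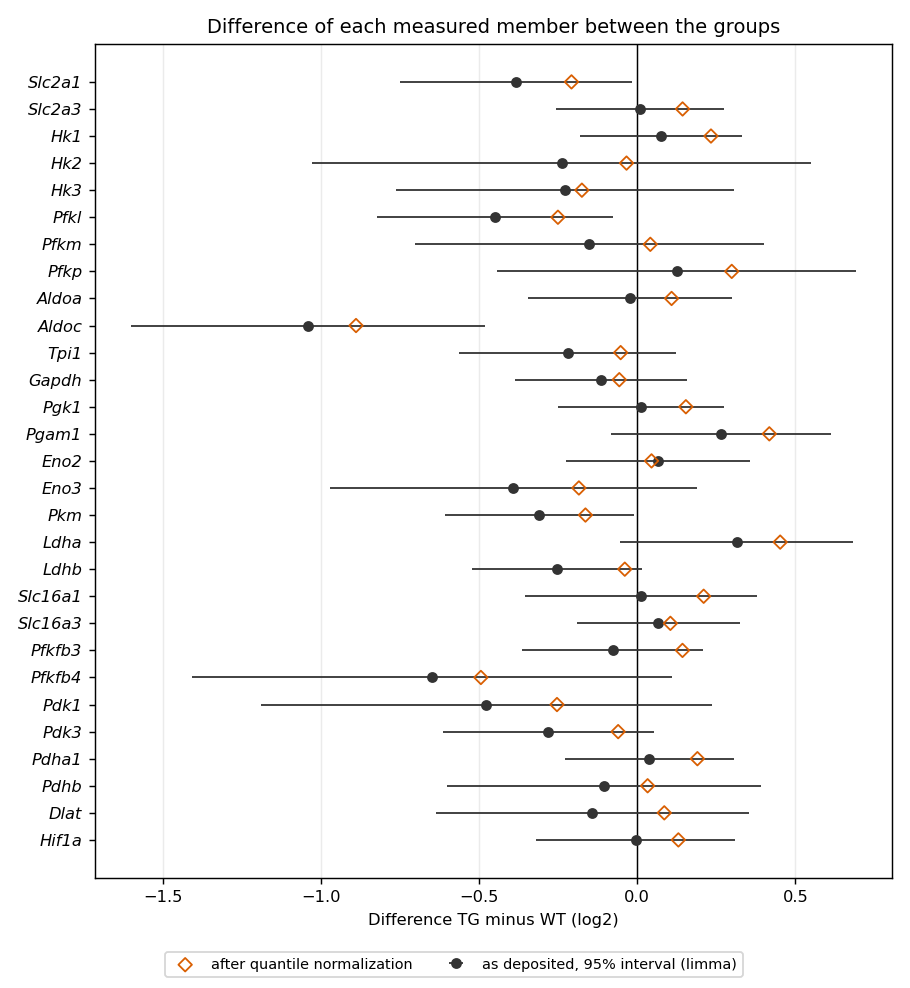
Difference between transgenic and wild type means for each member in log2 units, as deposited (filled circles, with the unadjusted 95% interval from limma) and after quantile normalization (open diamonds). The intervals of Aldoc, Pfkl, Slc2a1 and Pkm do not reach 0 as deposited. Nearly every diamond lies to the right of its circle, and the median moves from -0.11 to 0.041.

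Lactate and pyruvate cross the membrane through monocarboxylate transporters. Slc16a1, the widely expressed transporter, measured 7.34 and 7.32 against 7.19 and 7.50, with the transgenic arrays on either side of wild type (difference 0.012). Slc16a3, the lactate exporter of glycolytic cells, was dim at 4.26 and 4.21 against 4.27 and 4.33, and although the groups did not overlap the difference was 0.067 (SE 0.098). Both differences were smaller than their standard errors (0.14 for Slc16a1).

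Pfkfb3 and Pfkfb4 make the fructose bisphosphate that activates phosphofructokinase. Pfkfb4 (1456888_PM_at) measured 6.08 and 5.89 in wild type and 4.93 and 5.75 in transgenic arrays. Both lay below wild type, mouse 1 at -1.06 and mouse 2 at -0.24 from its mean (mean difference -0.65, SE 0.29, adjusted p = 0.417). Pfkfb3 measured 6.82 and 6.88 against 6.69 and 6.85 and overlapped (difference -0.078).

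Pyruvate dehydrogenase kinases phosphorylate and thereby inhibit the pyruvate dehydrogenase complex. Pdk1 (1423747_PM_a_at) measured 7.09 and 6.93 against 6.15 and 6.92, so that transgenic mouse 2 stood next to wild type mouse 2 (difference -0.48, SE 0.27). Its other probe sets differed by -0.31 and 0.19, so the 3 did not go one way. Pdk3 measured 7.10 and 7.20 against 6.75 and 6.99, lower in both transgenic arrays (difference -0.28, SE 0.13, adjusted p = 0.424). Of the complex itself, Pdha1 (E1 alpha subunit) measured 8.80 and 8.83 against 8.91 and 8.80, Pdhb (E1 beta) 9.55 and 9.63 against 9.24 and 9.74, and Dlat (E2) 6.45 and 6.61 against 6.15 and 6.62. On these probe sets all 3 overlapped, with differences of 0.038, -0.10 and -0.14. The other probe set of Pdha1 was higher without overlap (difference 0.21), and that of Pdhb lower without overlap (-0.76). The other probe sets of Dlat differed by -0.19 and -0.31, with overlap. Hif1a measured 9.55 and 9.51 against 9.42 and 9.63, and its difference of -0.0053 (95% interval -0.32 to 0.31) was the smallest of the list. Its dimmer probe set measured 4.31 and 4.65 against 4.70 and 4.72, higher without overlap (difference 0.23).

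Of the 29 members 17 had several probe sets. In 10 of these all probe sets lay on one side of 0, lower for 8 and higher for Hk1 and Pdha1. In the other 7 they lay on both sides, with spreads from 0.037 for Slc16a1 to 1.04 for Pfkp. The dim second probe set of Pdhb, at 2.87 to 4.12, differed by -0.76 where the bright one differed by -0.10.

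**Figure D4:**
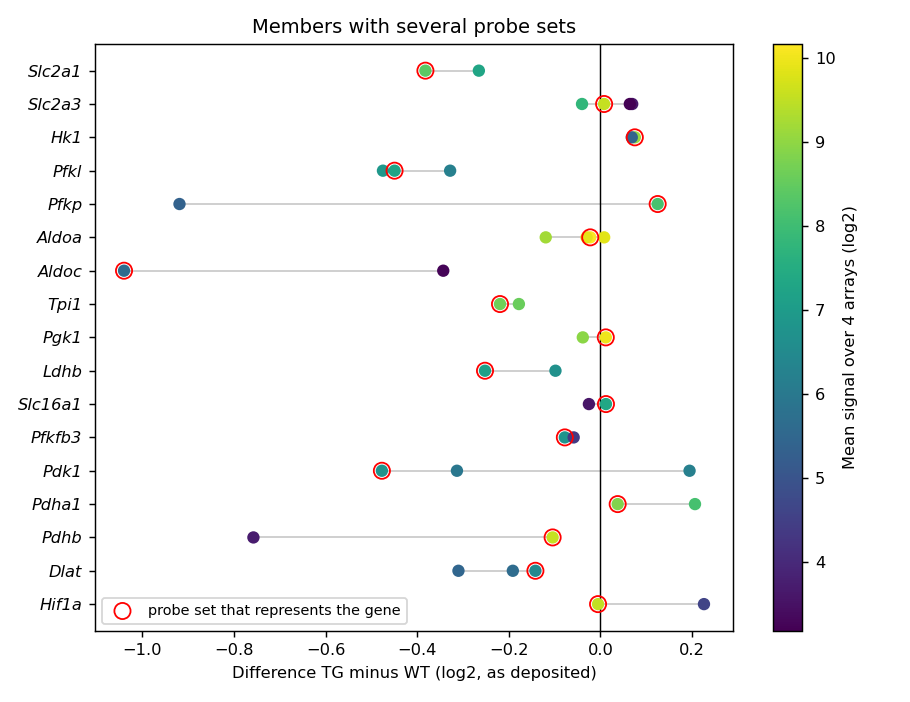
Difference between transgenic and wild type means (log2) for every probe set of the 17 members with more than 1, coloured by mean signal, with a red ring around the probe set that represents the gene. The 3 probe sets of Pfkl lie together between -0.47 and -0.33, whereas those of Pfkp and Pdk1 lie on both sides of 0.

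Other genes of the pathway were taken from 9 lists. As deposited, 0 of their 126 measured genes passed the adjusted limma threshold, and 20 were lower (15.9%) and 6 higher (4.76%) at an unadjusted p under 0.05, beside 10.2% and 3.83% of all genes. Of the 12024 genes above the 40th percentile of signal 1657 were lower and 539 higher at that level. The medians of all 9 lists lay below 0 as deposited, but those of 4 lay above 0 after quantile normalization. Without transgenic mouse 1 the medians ran from -0.089 to 0.087, with 3 above 0, and without transgenic mouse 2 from -0.51 to -0.16. Among 17 measured genes of the citric acid cycle 10 were lower and 1 higher without overlap (median -0.27), beside 31.4% and 17.7% of all genes. Of the 12024 genes above the 40th percentile 4562 were lower and 1829 higher without overlap. Cs, citrate synthase, differed by -0.36, Ogdh, of the oxoglutarate dehydrogenase complex, by -0.56, Aco1 by -0.46 and Fh1, fumarase, by -0.42 (SE 0.11 to 0.16, limma adjusted p from 0.221 to 0.360). Among 8 genes of the pentose phosphate pathway 5 were lower without overlap and none higher (median -0.25), with Pgls at -0.50, Tkt, transketolase, at -0.42, Pgd at -0.39 and Rpia at -0.32. After quantile normalization the medians of these lists were -0.089 and -0.097. Without transgenic mouse 1 they were -0.067 and -0.084, and without transgenic mouse 2 they were -0.44 and -0.51.

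Of 19 genes of pyruvate and monocarboxylate handling 7 were lower and 2 higher without overlap (median -0.19), beside 31.4% and 17.7% of all genes. Gpd2, the mitochondrial glycerophosphate dehydrogenase that carries cytosolic reducing power to the respiratory chain, measured 7.74 and 7.80 against 6.485 and 7.04. Both transgenic arrays were lower (difference -1.01, SE 0.21, adjusted p = 0.194; after quantile normalization -0.81, adjusted p = 0.0391). Emb, embigin, a partner of monocarboxylate transporters, measured 8.96 and 9.12 against 9.73 and 10.06. It was higher in both (difference 0.86, SE 0.15, adjusted p = 0.168; after quantile normalization 1.01, adjusted p = 0.0247). Pdpr differed by -0.51 and Pdk2 by -0.29. Gluconeogenesis, glycogen and galactose genes had a median of -0.085 (17 genes, 6 lower and 3 higher without overlap, beside the same shares of all genes). In that list Pck2, the mitochondrial phosphoenolpyruvate carboxykinase, differed by -0.79, Fbp1 by 0.72, Pgm2 by 0.33 and Gys1 by -0.25.

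Regulators went both ways. The counts of lower and higher genes below are those without overlap, beside 31.4% lower and 17.7% higher of all genes. Among 11 genes of HIF regulation 6 were lower and 3 higher without overlap (median -0.16, and 0.057 after quantile normalization), with Vhl, which targets HIF alpha subunits for degradation, at -0.37, Rbx1 at -0.32, and the other alpha subunits Epas1 and Hif3a at 0.58 and 0.47. Of 18 other reported HIF targets 6 were lower and 2 higher (median -0.11, and 0.0088 after quantile normalization). Ndrg1, a stress-responsive gene, measured 7.99 and 7.98 against 6.60 and 6.92, 2.33-fold lower in the transgenic arrays (difference -1.22, SE 0.14, adjusted p = 0.106; after quantile normalization -1.02, adjusted p = 0.0209). Ankrd37 differed by -0.92 and Ddit4 by -0.63, but Car12 by 0.59. Of 15 other regulators 9 were lower and 4 higher (median -0.25), among them Mlxip (-0.64), Akt1 (-0.37), Prkab1 (-0.30) and Mlx (0.35). Of 10 genes listed under glucose entry and its regulators 4 were lower and 3 higher (median -0.084, and 0.053 after quantile normalization). In that list Slc2a9 differed by -0.51 and Txnip, an inhibitor of glucose uptake, by -0.37. Slc2a10 and Slc2a2 differed by 0.33 and 0.21, both dim. The list of other glycolytic isozymes had 1 gene lower and 2 higher of 11 (median -0.025, and 0.031 after quantile normalization), with Minpp1 at -0.31, Galm at 0.18, Pfkfb2 at -0.18 and Ldhc at 0.15. Gpd2, Emb and Ndrg1 were the only ones of the 126 measured genes of the 9 lists past the threshold after quantile normalization. Of all 17097 genes 173 passed as lower and 227 as higher there.

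**Figure D5:**
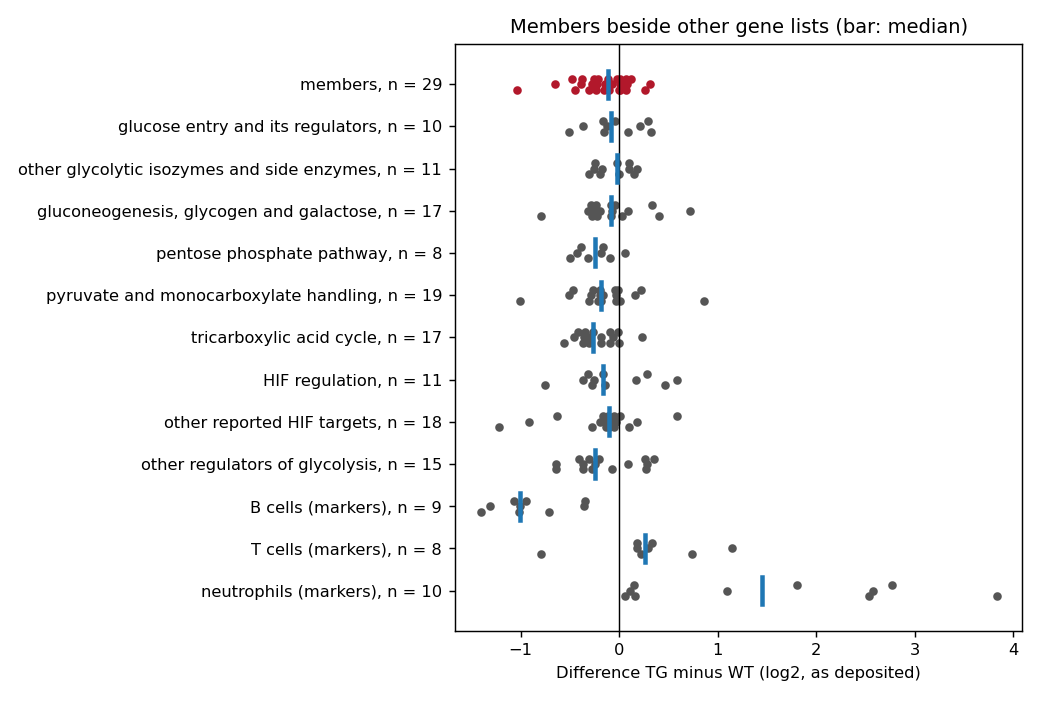
Difference between transgenic and wild type means (log2, as deposited) for the 29 members (red), the genes of 9 related lists and 3 lists of cell type markers (grey), with 1 point per gene and a blue bar at the median. The members and related lists have medians from -0.27 to -0.025, whereas B cell markers have a median of -1.01 and neutrophil markers of 1.45.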

How the data were processed

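Affymetrix arrays of 4 samples were compared. The values deposited by the authors are log2 signals, 1 per probe set and array. Their background correction, normalization and summary are not given in the sources used here, and no genome build is named. The log2 scale was read from the range of values. Groups came from the sample titles and gene symbols from the platform annotation. After setting aside 104 control probe sets, the remaining 45037 were fitted with limma 3.58.1 (R 4.3.3; lmFit, then eBayes with 2 residual and 2.69 prior degrees of freedom). P-values are two-sided, with Benjamini-Hochberg adjustment over the whole table and a threshold of 0.05. The fit was tested on simulated data with known changes. The number of arrays limits the precision.

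Members and lists were chosen with earlier results of these data known. Values per array are given for the 12 members with the smallest p, for isozymes and for the other members. From each related list up to 4 genes with the smallest p were named, from probe sets with 1 gene. Alternatives were a replicate block, quantile normalization, centring on array medians, a filter at the 40th percentile (4.10), a trended and robust eBayes, a threshold of 0.1, single-gene probe sets, the averaged probe sets of a gene and each array left out. Same-numbered mice did not deviate together (correlation 0.0145 across probe sets), and nothing in the labels pairs the mice. Promoter and microRNA sequences are from RefSeq. Figures were drawn with matplotlib 3.10.9.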

Additional observations from a re-analysis of the deposited data

How the results depend on the processing

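Limits: 2 mice per group, signals without detection calls, an unknown normalization, and a transgenic array (mouse 1) with lower signal among bright probe sets. No member passed with the replicate block, quantile normalization, median centring, the filter on dim probe sets, the trended fit, a threshold of 0.1, single-gene probe sets or the mean of all probe sets; leaving out 1 array gave 0 to 12 members. With the replicate block 15 probe sets passed, against 21. The count over all probe sets was 870 after quantile normalization, 614 after median centring, 51 with the filter, 139 at a threshold of 0.1 and 0 to 19110 with 1 array left out (0 without either wild type mouse, 4140 without transgenic mouse 1, 19110 without transgenic mouse 2). Members without overlap numbered 15 to 28 with 1 array left out, 27 without transgenic mouse 1 and 28 without mouse 2. A lone transgenic array overlaps only if it falls between the 2 wild type values. Of all 17097 genes, 6443 lay lower and 7351 higher without overlap when transgenic mouse 1 was left out. With mouse 2 left out 10574 lay lower and 4654 higher. The median of the members was 0.041 after quantile normalization and -0.27 to 0.057 with 1 array left out, above 0 without transgenic mouse 1 alone. The medians of the 9 related lists ran from -0.27 to -0.025 as deposited, -0.10 to 0.057 after quantile normalization (4 above 0) and -0.21 to 0.028 after median centring (1 above 0).

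The sign held in all alternatives run for 16 members, 12 lower (among them Aldoc, Pfkl, Slc2a1, Pkm and Ldhb) and 4 higher (Hk1, Pgam1, Ldha and Slc16a3). The other 13 turned in some, and the cause was not tested. The replicate block, the filter, the trended fit and the single-gene setting, where run, return the same difference. These could not turn a sign. Leaving out 1 array could not turn it either for members without overlap as deposited. Those were 11 of the 12 lower members, all but Hk3, and all 4 higher ones. After quantile normalization Pfkm was 0.041, Aldoa 0.11, Pfkfb3 0.14, Pdhb 0.033, Dlat 0.086 and Hif1a 0.13. After median centring Aldoa was 0.031 and Hif1a 0.048. As the mean of all probe sets Pfkp was -0.40, Pgk1 -0.013, Slc16a1 -0.0066 and Hif1a 0.11. With 1 array left out the differences ran from -0.043 to 0.059 for Slc2a3, -0.68 to 0.20 for Hk2, -0.43 to 0.13 for Pfkm, -0.17 to 0.42 for Pfkp, -0.14 to 0.091 for Aldoa, -0.034 to 0.057 for Pgk1, -0.0071 to 0.14 for Eno2, -0.15 to 0.17 for Slc16a1, -0.16 to 0.0018 for Pfkfb3, -0.017 to 0.092 for Pdha1, -0.35 to 0.14 for Pdhb, -0.38 to 0.094 for Dlat and -0.11 to 0.10 for Hif1a.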
